A study of Mus musculus with 24 samples.

Results

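Bergmann glia are the radial astrocytes of the cerebellar cortex, whose processes wrap Purkinje cell synapses, and velate and fibrous astrocytes fill the granular layer and white matter. These cells take up released glutamate, turn it into glutamine, buffer potassium and bicarbonate, and are joined into networks by gap junctions. The genes for this upkeep are on in healthy tissue, which sets them apart from genes such as Gfap and Serpina3n that astrocytes raise when they react to damage.

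The genes described here are 10 named genes of Bergmann glia and homeostatic astrocytes: Slc1a3, Slc1a2, Glul, Aqp4, Slc4a4, Gjb6, Gdf10, Hopx, Aldh1l1 and S100b. Every probe whose transcript the reference gene table assigns to a member was taken, which gave 15 probes, among 38115 probes kept of 56605 on the array. The members are 10 of 16935 genes with a kept probe. Glul had 3 probes, Aqp4, Slc4a4 and Gjb6 had 2 each, and the other 6 genes had 1. All 15 probes were well above background on all 24 arrays, so no member entered through a single group. A gene's main value is that of its brightest probe.

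The study measured cerebellar total RNA of C57BL/6 mice on 24 arrays of a single colour, in 12 groups of 2. Controls carried floxed Derl1 or floxed Derl2 without Cre, and knockouts carried in addition a Cre recombinase under the nestin promoter. This promoter acts in neural precursors, so the gene is removed from the cells that descend from them. Mice given the chemical chaperone 4-phenylbutyrate (4PBA) received 200 mg/kg by daily abdominal injection between postnatal days 14 and 28, vehicle mice received water, and cerebella were collected at day 28. The 12 groups were control and KO, each with and without 4PBA, in the numbered Derlin-1 series, the lettered Derlin-1 series and the Derlin-2 line. The numbered Derlin-1 and Derlin-2 arrays without 4PBA are labelled vehicle, while the lettered ones name no vehicle and are called untreated here; whether those mice were injected is not given in the sources used here.

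Each series lay on a slide of its own with 8 arrays, with controls to the left and knockouts to the right, so position and genotype cannot be told apart. On every slide the arrays without 4PBA lay in row 1 and the 4PBA arrays in row 2. Row and treatment therefore cannot be told apart either. The share of spots well above background was 57.7% to 68.4% per array, and 2 arrays a group limit the precision. Nothing in the labels says that the arrays of a group came from separate animals, so the tests measure the spread between these arrays, which may be technical. A Derlin transcript went against the label of 2 arrays: the library labelled Derlin-2 KO vehicle 1 had a Derl2 level of 1.73, above both vehicle controls at 1.45 and 1.56, and the library labelled Derlin-1 KO 4PBA b had a Derl3 level of -2.25, inside the range of its controls. On the first of these, Derl3 went with the label, at -1.83 against -2.99 and -2.73 in the vehicle controls. The Derl1 probe overlapped between knockouts and controls in the Derlin-1 line and so did not serve as a check there. The members' medians and the named differences that use either array are also given without it.

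The promoters of Gjb6, Glul and Gdf10 are shown because the changes described below turn on these genes. Each line is the 250 bases before the RefSeq transcript start in GRCm38.p6, 5′ to 3′ on the gene's strand. Gjb6, on the minus strand of chromosome 14, is chr14:57133612-57133861. Glul, on the plus strand of chromosome 1, is chr1:153899679-153899928, and Gdf10, on the plus strand of chromosome 14, is chr14:33923337-33923586. Capitals mark matches, on either strand, to the CCAAT box, the TATA box (TATAAA) and the letters CACCC.
Gjb6: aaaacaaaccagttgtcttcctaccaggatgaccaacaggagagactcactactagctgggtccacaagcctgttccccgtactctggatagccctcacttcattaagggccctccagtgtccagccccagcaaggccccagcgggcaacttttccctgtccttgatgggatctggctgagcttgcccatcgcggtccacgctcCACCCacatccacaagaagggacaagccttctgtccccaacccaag
Glul: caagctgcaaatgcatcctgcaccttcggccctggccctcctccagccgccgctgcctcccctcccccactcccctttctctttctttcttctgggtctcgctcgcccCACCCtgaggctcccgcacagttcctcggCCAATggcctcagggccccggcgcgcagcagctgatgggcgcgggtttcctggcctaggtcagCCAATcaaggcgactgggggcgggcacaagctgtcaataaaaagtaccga
Gdf10: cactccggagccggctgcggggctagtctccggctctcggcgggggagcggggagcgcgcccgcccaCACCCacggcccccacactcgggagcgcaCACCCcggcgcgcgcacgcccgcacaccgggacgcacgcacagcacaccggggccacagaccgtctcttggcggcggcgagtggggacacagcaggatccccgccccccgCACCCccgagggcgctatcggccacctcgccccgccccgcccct
CACCC occurred 1 time in the Gjb6 window, 1 time in that of Glul and 3 times in that of Gdf10, and in 52.0% of all 32851 promoter windows of this length. CCAAT occurred 2 times in the Glul window, in neither of the others, and in 33.8% of all windows. None of the 3 windows held TATAAA, which 12.4% of all windows held. TTGGC, whose complement GCCAA can overlap CCAAT, was found 2 times for Glul, 1 time for Gdf10 and 0 times for Gjb6, and in 41.5% of all windows. ACAAT, which 27.7% of all windows held, was in none of the 3. Nor was CACGTG, which 6.02% held. GC content was 56.8% for Gjb6, 64.8% for Glul and 78.8% for Gdf10, against a median of 52.4% over all windows. In all, 9 of the 10 genes had a promoter in the table, and the gene without one was Aqp4. These matches describe the letters and say nothing of binding.

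In the Derlin-1 line without 4PBA, none of the 10 genes passed the test between knockout and control arrays. The threshold for a call was a limma p, adjusted over all 38115 kept probes by Benjamini-Hochberg, under 0.05. Of all genes 6.82% reached it, 3.5% higher and 3.32% lower. A level is a log2 intensity from which the 75th percentile of its array was subtracted, and a difference of 1 is a 2-fold change. The median change of the members was 0.09 against -0.01 for all genes, and the median size of a change was 0.16 against 0.15. 6 members lay above 0 and 4 below, and 1 had an unadjusted p under 0.05. Scaling each array by its median in place of the 75th percentile lowered all genes by 0.11 (a shift of -0.11) and took the members' median to -0.02, while quantile normalization took it to 0.20. The 95% interval of 9 of the 10 genes lay within 1.5-fold in either direction, and the exception was Gjb6. In these bulk samples, fewer cells of a type and less RNA per cell cannot be told apart.

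**Figure D1:**
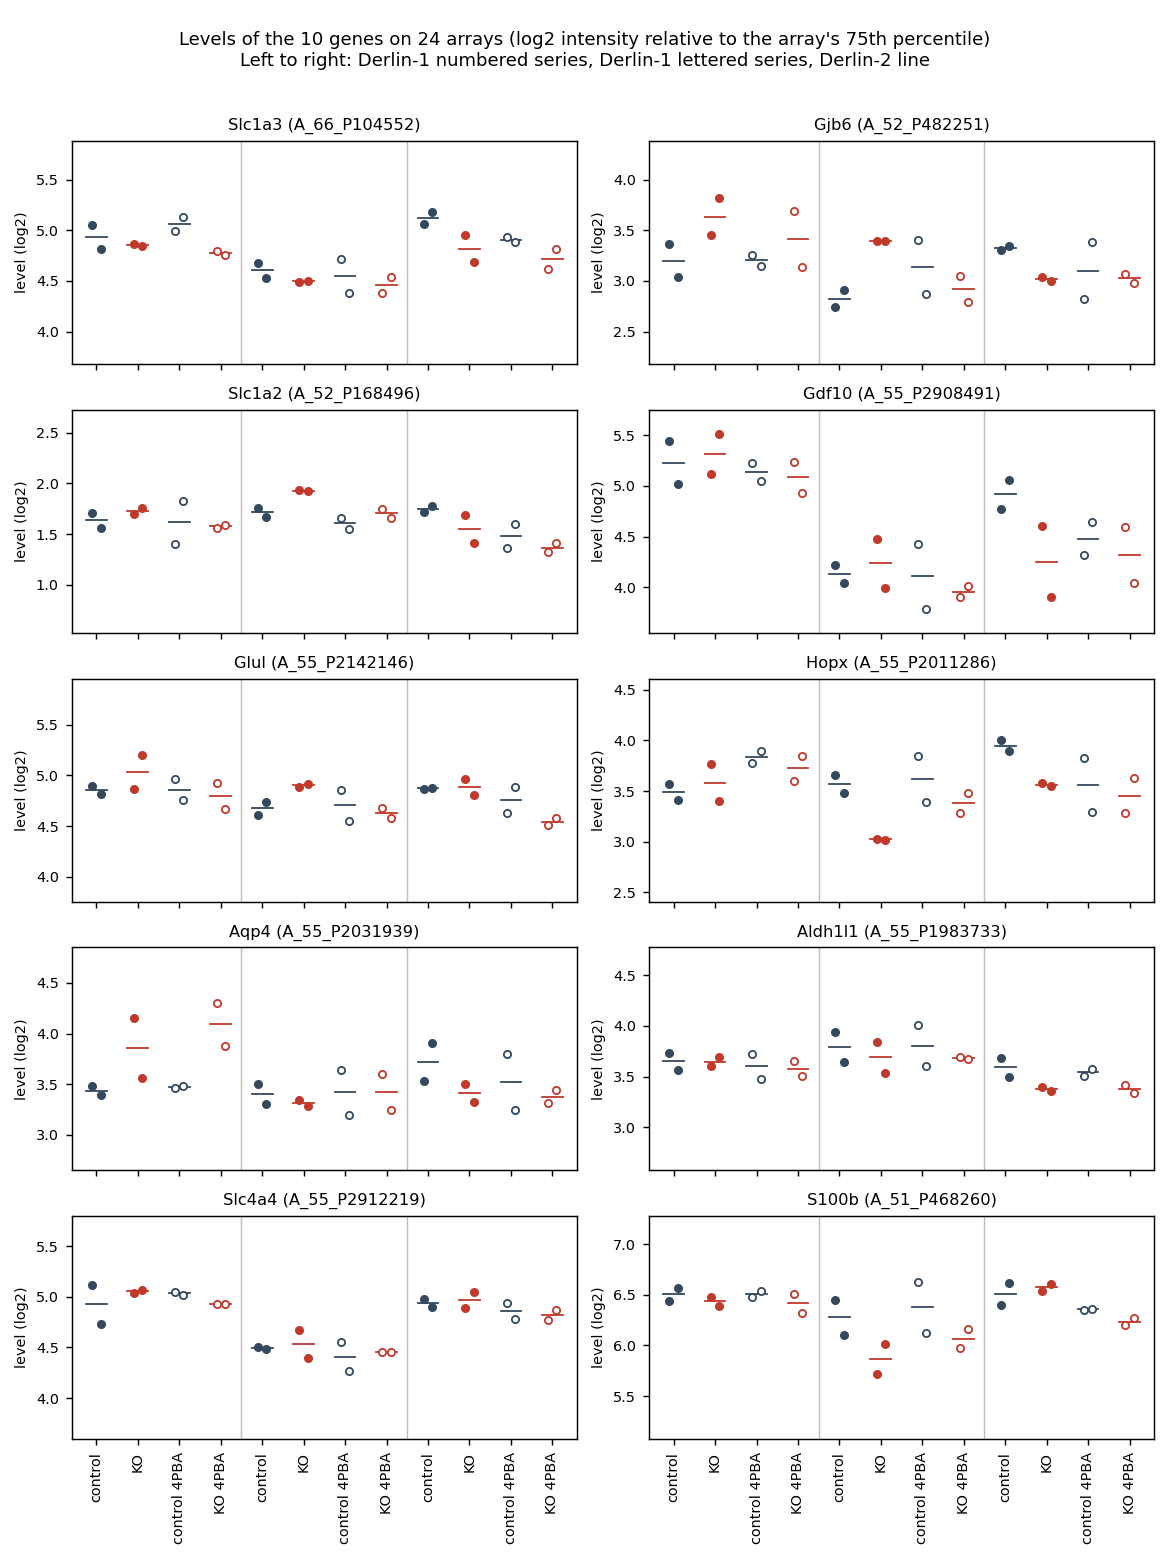
Level (log2 intensity relative to the array's 75th percentile) of the brightest probe of each of the 10 genes on 24 arrays, 2 arrays per group, with short lines for group means; dark points are controls, red points are KO and open points are 4PBA. All panels span the same range, and Gjb6 is the gene whose KO arrays without 4PBA lie above the controls on both Derlin-1 slides.

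Gjb6 encodes connexin 30, a gap junction protein of astrocytes, and it came nearest to a call. On the numbered arrays the Gjb6 level was 3.36 and 3.04 in vehicle controls and 3.45 and 3.82 in vehicle KO. On the lettered arrays it was 2.74 and 2.91 in untreated controls and 3.39 on both untreated KO arrays. KO and control arrays did not overlap on either slide, as for 11.2% of all genes in this direction. By its brightest probe no other member separated on both slides, higher or lower, where 12.7% of all genes were lower without overlap. The Gjb6 difference was 0.50 (SE 0.16, adjusted p 0.0856 by limma), a 1.41-fold ratio with a 95% interval of 0.16 to 0.83 on the log2 scale. The numbered series gave 0.43 and the lettered series 0.56.

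The other Gjb6 probe, which is dimmer and assigned to another Gjb6 transcript, read -2.38 and -3.06 in numbered controls and -2.34 and -1.97 in numbered KO. In the lettered series it read -1.80 and -1.84 in controls and -1.15 and -1.11 in KO. Again KO and control arrays did not overlap on either slide. This probe rose by 0.63 (SE 0.16, adjusted p 0.0381 by limma) and was the only called probe of the 15, where 5.09% of all kept probes were called. The numbered series gave 0.56 and the lettered series 0.69. The call did not hold when any of 7 of the 8 arrays compared was left out, with an adjusted p of 0.055 to 0.146, nor with quantile normalization, at 0.0535. The 2 probes correlated at r = 0.85 over the 24 arrays after each slide's mean was subtracted.

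Among the genes of glutamate handling, Slc1a3 and Slc1a2 encode the astrocytic glutamate transporters GLAST and GLT-1, and Glul encodes glutamine synthetase. The Glul level was 4.90 and 4.82 in numbered controls and 4.87 and 5.20 in numbered KO, and 4.61 and 4.74 in lettered controls against 4.89 and 4.92 in lettered KO. On the Derlin-2 slide with vehicle, 25.6% of all genes were lower in KO without overlap, so separation on a single slide is common. No such share was computed for a single Derlin-1 slide. For Glul the lettered arrays separated and the numbered ones overlapped. Its difference was 0.20 (SE 0.10, adjusted p 0.277 by limma). The other Glul probes gave 0.34 (adjusted p 0.112) and 0.41 (adjusted p 0.0704), and for both of them KO and control arrays did not overlap on either slide. The last of these probes passed under 3 of the alternatives tried, with adjusted p of 0.0452 to 0.0476. Slc1a3 differed by -0.09 (SE 0.09) and Slc1a2 by 0.15 (SE 0.10), with adjusted p of 0.65 and 0.408.

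Of the genes of water, bicarbonate and cell identity, several had unlike values in the 2 Derlin-1 series. Aqp4 encodes the water channel of astrocyte endfeet. Its level was 3.48 and 3.39 in numbered vehicle controls and 4.15 and 3.56 in numbered vehicle KO. In the lettered series controls read 3.5 and 3.3, and KO read 3.34 and 3.29. The numbered series gave 0.42 and the lettered series -0.09, which is 0.17 (SE 0.16, adjusted p 0.649 by limma) on average. The other Aqp4 probe gave 0.43 and 0.01.

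Hopx encodes a small homeodomain protein found in Bergmann glia, and it went the other way. The Hopx level was 3.66 and 3.48 in lettered untreated controls and 3.03 and 3.02 in lettered untreated KO, the lowest values of the 24 arrays. In the numbered series it was 3.57 and 3.41 in controls and 3.77 and 3.40 in KO, which overlap. The lettered series gave -0.54 and the numbered series 0.09, which is -0.22 (SE 0.14, adjusted p 0.41 by limma) on average. The test of lettered minus numbered gave -0.63 (SE 0.28, adjusted p 0.986), the largest such difference of the 10 genes, with none called and 0.0059% of all genes called. S100b, a calcium-binding protein, was at 6.45 and 6.10 in lettered controls and 5.72 and 6.01 in lettered KO, a difference of -0.41, against -0.07 in the numbered series and -0.24 (SE 0.12, adjusted p 0.264) on average.

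The other 3 genes had small differences in both series. Slc4a4 encodes the sodium bicarbonate cotransporter NBCe1, Gdf10 encodes a secreted growth factor that marks Bergmann glia, and Aldh1l1 encodes a folate enzyme used as a general astrocyte marker. Slc4a4 differed by 0.09 (SE 0.09), and by -0.02 with each array scaled by its median. Gdf10 differed by 0.09 (SE 0.20) and Aldh1l1 by -0.05 (SE 0.11). Their adjusted p were 0.681, 0.862 and 0.854 by limma.

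**Figure D2:**
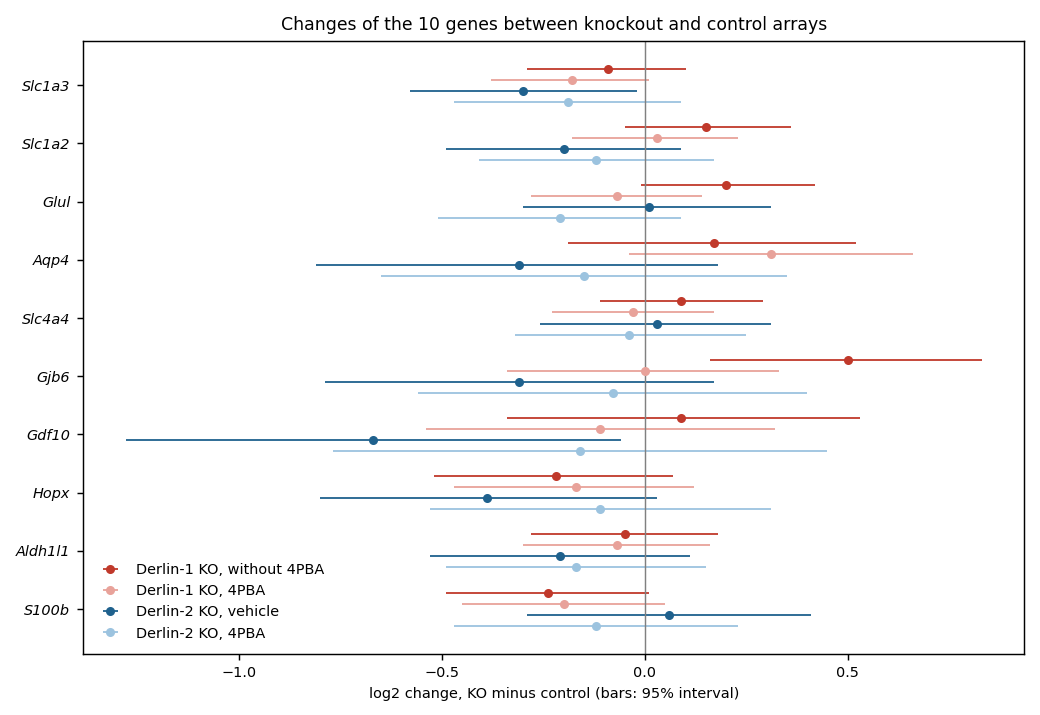
Log2 change from control to KO (horizontal axis) of each gene's brightest probe in 4 comparisons, points with 95% intervals from limma. The interval of Gjb6 without 4PBA in the Derlin-1 line runs from 0.16 to 0.83, and that of Gdf10 with vehicle in the Derlin-2 line from -1.28 to -0.06; neither passed the adjusted test.

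Related genes were counted over lists of which no member was picked for how it moved here, although all lists were chosen with earlier results of these data known. Of 25 other Bergmann glia genes, 0 rose and 2 fell in Derlin-1 KO without 4PBA, with a median of -0.07: the glutamate receptor subunit gene Gria4 fell by 0.52 (adjusted p 0.0227) and Metrn, which encodes the secreted protein meteorin, by 0.46 (adjusted p 0.0359). Among other astrocyte homeostasis genes, Cst3, encoding the protease inhibitor cystatin C, rose by 0.39 (adjusted p 0.0459). Of 21 genes of glutamate uptake and the glutamine cycle, the glutamine transporter gene Slc38a1 rose by 0.23 (adjusted p 0.0333) and Gad1, whose product makes GABA, fell by 0.22 (adjusted p 0.0366). In lists of this size a count of 2 lies near the 6.82% of all genes called in this comparison. Of 20 genes of potassium, water, pH and gap junctions, 0 passed, and their median was 0.03. Gja1, which encodes the other main connexin of astrocytes, differed by 0.31 (SE 0.15, adjusted p 0.281), and Gjb2, another connexin gene, by 0.11 (SE 0.12, adjusted p 0.662).

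Genes of the reactive list rose on the same arrays. Of its 24 measured genes of 26, 8 rose and 0 fell, with a median of 0.40. Gfap, the intermediate filament gene of reactive astrocytes, was at 1.5 and 1.85 in numbered controls and 2.85 and 2.89 in numbered KO. In the lettered series Gfap was at 2.12 and 2.06 in controls and 3.49 and 3.29 in KO. It rose by 1.24 (SE 0.18, adjusted p 0.00493 by limma), and the arrays did not overlap on either slide. Serpina3n, encoding a secreted protease inhibitor, rose by 2.34 (SE 0.34, adjusted p 0.00493), the chemokine gene Cxcl10 by 3.51 (SE 0.65, adjusted p 0.0107) and the immunoproteasome gene Psmb8 by 1.13 (SE 0.25, adjusted p 0.0233).

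Markers of other cells also moved with genotype. Of 10 microglia markers 8 rose, among them Trem2, Tyrobp, Aif1 and C1qb, with a list median of 1.43, and their summed level (log2) was 4.88 to 5.15 on the 4 KO arrays without 4PBA against 3.76 to 4.13 on the 4 controls. Of 9 granule neuron markers 2 fell (Gabra6 and Neurod1), with a median of -0.31. Each of the 10 microglia and 9 granule neuron markers was well above background on at least 1 array of each of these groups. The summed level of 5 choroid plexus markers ran from 1.46 on the lettered array labelled Derlin-1 KO b to 7.93 on the numbered array labelled KO vehicle 2. The part of these markers in the members' values was not tested.

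**Figure D3:**
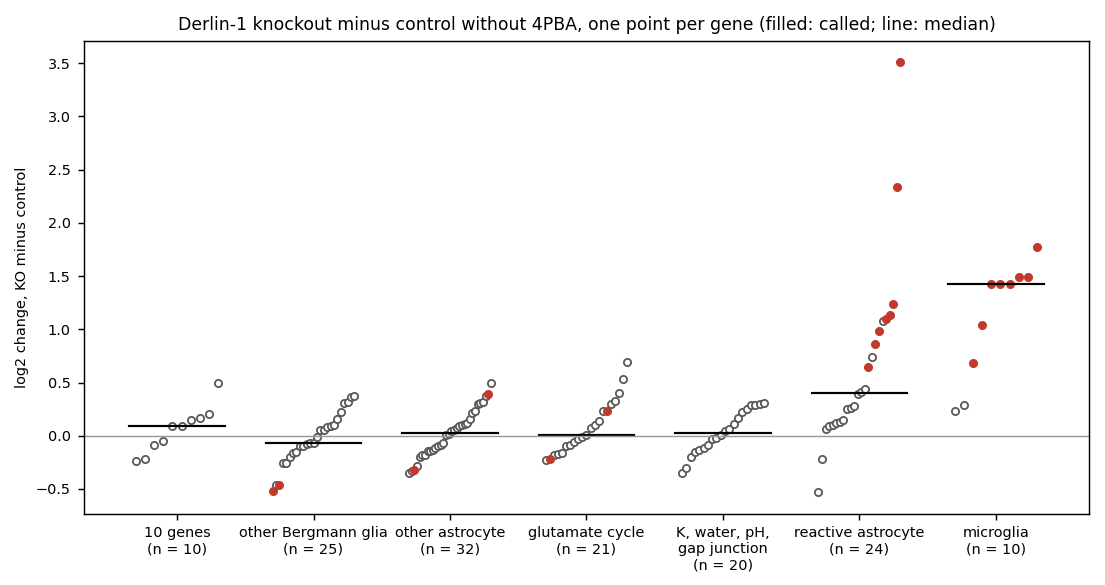
Log2 change from control to KO in the Derlin-1 line without 4PBA (vertical axis) for each measured gene of 7 lists, a filled point for each gene called and a line at each list's median. The 10 genes lie between -0.24 and 0.50, with none called, while 8 of 24 reactive genes and 8 of 10 microglia markers were called higher.

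Under 4PBA the Derlin-1 knockouts again had no called member, where 0.0472% of all genes were called; 0 of the 10 genes had an unadjusted p under 0.05 by limma. The members' median was -0.07 against -0.02 for all genes, and -0.13 with median scaling and 0.00 with quantile normalization. Gjb6 was at 3.26 and 3.15 in numbered controls, 3.69 and 3.14 in numbered KO, 3.40 and 2.87 in lettered controls and 3.05 and 2.79 in lettered KO. The ranges overlapped on both slides, and the Gjb6 difference was 0.00 (SE 0.16, 95% interval -0.34 to 0.33). The test of the KO effect under 4PBA minus that without gave -0.50 (SE 0.22, adjusted p 1 by limma) for Gjb6, and 0.0177% of all genes were called in that test. When KO 4PBA b of the lettered series was left out, the Gjb6 difference under 4PBA was 0.06 (adjusted p 0.958), the difference of effects -0.44 (adjusted p 1) and the members' median under 4PBA -0.06. Still none of the 10 genes was called, and the share of all genes called was 4.05%.

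Of the Derlin-1 comparisons of KO and control, Aqp4 had its larger difference under 4PBA. It was at 3.46 and 3.48 in numbered 4PBA controls and 4.30 and 3.88 in numbered 4PBA KO, and at 3.64 and 3.20 against 3.60 and 3.25 in the lettered series. Separation on a single slide is common: on the Derlin-2 slide under 4PBA, 25% of all genes were lower in KO without overlap. The share for a single Derlin-1 slide was not computed. For Aqp4 the numbered 4PBA arrays did not overlap between genotypes, and the lettered ones did. The numbered series gave 0.62 and the lettered series 0.00, which is 0.31 (SE 0.16, adjusted p 0.582 by limma) on average and 0.40 (adjusted p 0.358) without the lettered array KO 4PBA b. The test of lettered minus numbered gave -0.62 (SE 0.33, adjusted p 1) for Aqp4, and -0.44 (adjusted p 1) without that array, with 0.0295% of all genes called.

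**Figure D4:**
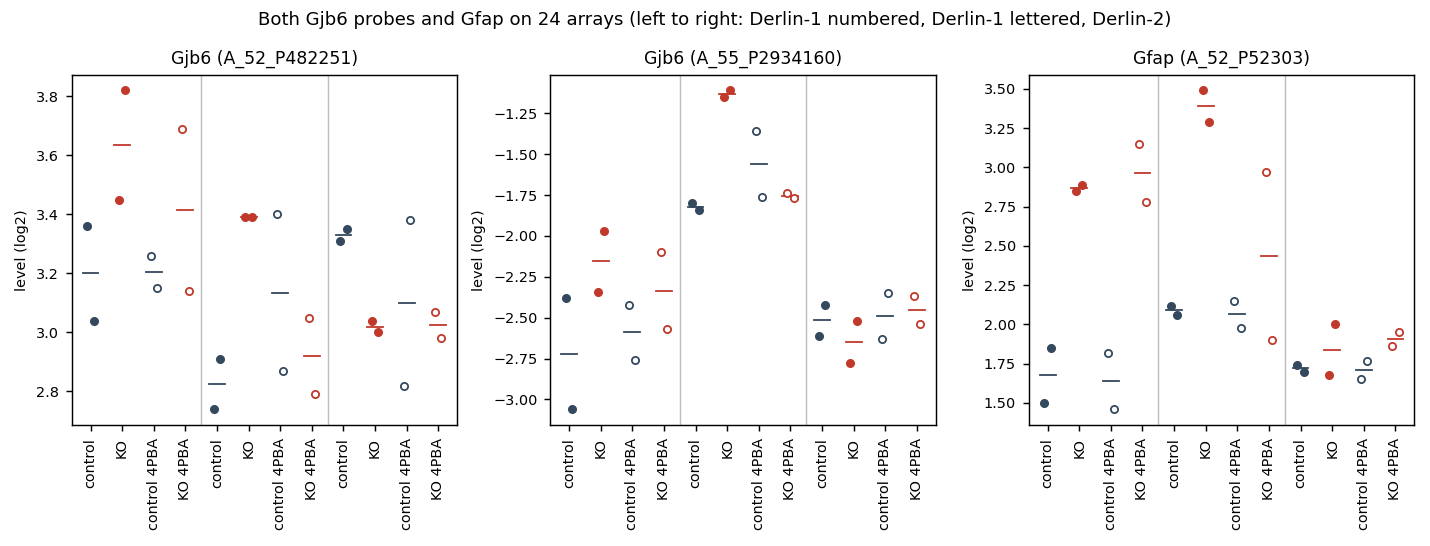
Levels (log2 intensity relative to the array's 75th percentile) of both Gjb6 probes and of Gfap on 24 arrays, 2 per group, with short lines for group means; dark points are controls, red points are KO and open points are 4PBA, and each panel has its own vertical range. Without 4PBA the Derlin-1 KO arrays lie above their controls in all 3 panels, while under 4PBA the Gjb6 ranges overlap; in the lettered series the array labelled KO 4PBA b has a Gfap level of 1.90.

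Giving 4PBA to Derlin-1 controls left all 10 genes uncalled, with 0.0295% of all genes called, 0 of the 10 at an unadjusted p under 0.05 and a members' median of 0.02, which was -0.04 with median scaling. The largest difference was 0.20 (SE 0.14) for Hopx, and all 10 intervals lay within 1.5-fold. In Derlin-1 KO, 4PBA also gave no call, with 0.0354% of all genes called and 2 members at an unadjusted p under 0.05. These were Gjb6 at -0.35 (SE 0.16, adjusted p 0.925) and Glul at -0.26 (SE 0.10, adjusted p 0.911). Without KO 4PBA b of the lettered series the Gjb6 difference was -0.28, that of Glul -0.23 and the members' median -0.10, again with no call. The other Glul probes gave -0.31 and -0.42 (-0.30 and -0.42 without that array), and the other Gjb6 probe gave -0.40 (-0.39 without it). This comparison shares its KO arrays without 4PBA with the comparison of KO and control, in which both genes had positive differences.

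In the Derlin-2 line most members lay lower in vehicle KO than in vehicle control, and none was called, where 0.106% of all genes were called. The members' median was -0.26 against -0.01 for all genes, 7 of the 10 lay below 0, and 2 had an unadjusted p under 0.05 by limma. For 7 members (Slc1a3, Slc1a2, Aqp4, Gjb6, Gdf10, Hopx and Aldh1l1) both KO arrays lay below both controls, as for 25.6% of all genes. These 7 were measured on the same 4 arrays and share whatever sets those arrays apart. The members' median stayed between -0.27 and -0.26 under the other scalings and background corrections. The Derlin-2 microglia markers had 0 of 10 called, with a median of -0.14, and the reactive list 0 of 24, with a median of 0.09.

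Gdf10 had the largest difference of these. It was at 4.77 and 5.06 in vehicle controls and at 4.60 and 3.90 in vehicle KO. The 2 KO arrays were further apart than the controls, and the lower of them was the one whose Derl2 level fell with its label. The Gdf10 difference was -0.67 (SE 0.28, adjusted p 0.698 by limma). Leaving out KO vehicle 1 gave -1.02 (adjusted p 0.279), and leaving out KO vehicle 2 gave -0.32 (adjusted p 1). Choroid plexus markers had a summed level of 7.93 on KO vehicle 2, 6.87 on KO vehicle 1 and 6.98 and 7.27 on the controls, and their part in this difference was not tested.

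Hopx was next, followed by Aqp4, Gjb6 and Slc1a3 with differences close to each other. Hopx was at 4.00 and 3.90 in vehicle controls and 3.58 and 3.55 in vehicle KO, a difference of -0.39 (SE 0.20, adjusted p 0.737). Aqp4 was at 3.53 and 3.91 in controls and 3.5 and 3.32 in KO, a difference of -0.31 (SE 0.23, adjusted p 0.824). Slc1a3 was at 5.06 and 5.18 in controls and 4.95 and 4.69 in KO, a difference of -0.30 (SE 0.13, adjusted p 0.706). Gjb6 was at 3.31 and 3.35 in controls and 3.04 and 3.0 in KO, a difference of -0.31 (SE 0.22, adjusted p 0.819). Without KO vehicle 1 the differences were -0.40 for Hopx, -0.40 for Aqp4, -0.43 for Slc1a3 and -0.33 for Gjb6, with adjusted p of 0.382 to 0.805. The Derlin-1 minus Derlin-2 KO effect was 0.81 (SE 0.27, adjusted p 0.305 by limma) for Gjb6 and 0.76 (SE 0.35, adjusted p 0.448) for Gdf10, and it passed for no member, where 0.065% of all genes passed. Leaving out KO vehicle 1 gave 0.83 (adjusted p 0.371) for Gjb6 and 1.11 (adjusted p 0.269) for Gdf10, so the order of these 2 genes rests on that array. Without the array labelled KO vehicle 1, the members' median in Derlin-2 vehicle KO was -0.34 and 8 of 10 lay below 0, and without KO vehicle 2 it was -0.18.

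Under 4PBA all 10 members lay below 0 in Derlin-2 KO, with a median of -0.14 against -0.03 for all genes, of which 58.8% lay below 0. None was called, 0 had an unadjusted p under 0.05 by limma, and 0.136% of all genes were called. Both KO arrays lay below both controls for 4 members (Slc1a3, Glul, Aldh1l1 and S100b), against 25% of all genes. For the other 6 members KO and control arrays overlapped. Median scaling by itself moved all genes by -0.08 in this comparison. Giving 4PBA to Derlin-2 controls also left all 10 genes below 0 and none called, with a median of -0.21 against -0.05 for all genes, 0.13% of all genes called and 63.6% of all genes below 0. With quantile normalization 8 of the 10 stayed below 0 in that comparison, and median scaling by itself moved all genes by -0.12 in it. In Derlin-2 KO, 4PBA gave a members' median of -0.10 against -0.07 for all genes, of which 65.3% lay below 0. The members' median was 0.04 with quantile normalization and -0.30 with median scaling, which by itself moved all genes by -0.20. There was again no call, with 0.136% of all genes called. Without KO vehicle 1 that median was -0.01, and without KO vehicle 2 it was -0.18 with 10 of 10 below 0, with no call in either. These comparisons share arrays with each other.

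Some members differed between slides by more than between genotypes. Gdf10 was at 5.02 to 5.44 on the 4 numbered Derlin-1 controls and at 3.79 to 4.43 on the 4 lettered controls, a difference of -1.07. Slc4a4 differed by -0.53 and Slc1a3 by -0.42 between these controls, likewise without overlap. The other 7 genes overlapped, and 42.1% of all genes did not. Probes of the same gene could differ in direction between the series: the brightest Gjb6 probe was lower by 0.22 (a difference of -0.22) in lettered controls, and the other was higher by 0.97. The 2 remaining tests, of the Derlin-2 KO effect under 4PBA minus with vehicle and of the Derlin-1 minus Derlin-2 KO effect under 4PBA, called none of the 10 genes, and each called 0.0709% of all genes. The first had a members' median of 0.10, with 0.23 without the Derlin-2 array KO vehicle 1 and 0.02 without KO vehicle 2. Every tested difference between groups was formed within slides before series or lines were compared.

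The spread between the 2 arrays of a group (pooled SD over 12 groups) ran from 0.12 for Slc1a3 and Slc4a4 to 0.30 for Gdf10. The range over all 24 arrays ran from 0.62 for Slc1a2 to 1.72 for Gdf10. The 12 group means of a gene were also put in order, which crosses slides and lines. Of 11 neighbour pairs, 1 separated for Slc1a3, Slc1a2 and Glul, 0 for Aqp4, and 1 or 2 for the other genes. Neighbours in such an order have the closest means, so few separations follow from the ordering itself. No share over all genes was computed, and the counts describe only the order.

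Correlations between members were mostly above 0, and no such values were computed for pairs of other genes. Over the 24 arrays, with each slide's mean subtracted, the 45 pairs of members had a median Pearson r of 0.31, from -0.25 to 0.77, and 40 pairs lay above 0. Glul and Gjb6 made the pair with an r of 0.77. All these values share the arrays and their scaling, and no test was made. Probes of the same gene had r of 0.86 to 0.91 for Glul, 0.87 for Aqp4 and 0.57 for Slc4a4.

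Among 14256 genes well above background on every array, those most like Gjb6 by the same r over 24 arrays were Eva1a (0.92), Sdc4 (0.90) and Fkbp5 (0.90). Those most like Aqp4 were Il13ra1 (0.85), Vim (0.84) and H2ac22 (0.81). Those most like S100b were Chchd2, Pdhb and Chchd6, each at 0.94. For the glutamate genes they were Crebl2, Ift27 and Cdh2 (each 0.88) beside Slc1a3, Cdk14 (0.85), Golm2 (0.85) and Twistnb (0.83) beside Slc1a2, and Spag5 (0.84), Nudt9 (0.82) and Pde9a (0.81) beside Glul. For Slc4a4 they were Stag1 (0.84), Tafa5 (0.78) and Arhgef33 (0.77), and for Gdf10 they were Mro (0.86), Dnajb12 (0.82) and Slco4a1 (0.82). For Hopx they included Impdh2 (0.83) and Cmtm5 (0.82), and for Aldh1l1 they were Nudt8 (0.85), Oplah (0.84) and Cdk7 (0.84). These are descriptions over arrays that share scaling and slide. With group means subtracted in place of slide means, 4 of the 30 gene pairs chosen by this rule were found again.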

How the data were processed

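RNA was labelled with Cy3 and read with Agilent Feature Extraction 10.7.1.1, per the submitters' processing notes. The deposited signal used is linear intensity, background-corrected by the authors per the file headers, with no normalization between arrays recorded. The headers name another genome build than GRCm38.p6, so the gene table gave names only. Control spots were left out, between 52 and 637 outlier-flagged spots per array were set missing, and repeated spots were averaged. From each log2 intensity the 75th percentile of its array (881 to 1160 as intensity) was subtracted. Probes well above background on both arrays of a group were kept. A group-means model was fitted to all 24 arrays in limma 3.58.1 (R 4.3.3, with the data.table package at 1.17.8). Degrees of freedom were 12 residual and 1.92 prior. Comparisons were two-sided, formed within slides and averaged over the Derlin-1 series. Single-spot probes in the authors' deposited value table lay within 1.74e-06 (log2) of the scanner files. Named were all members, the 3 genes most like each member and, from each list, at most the 4 called genes with the largest change, plus Gja1 and Gjb2, chosen after their values were seen. Some genes that this rule names are not reported here. The members and lists were chosen with earlier results of these data known. Code was tested on simulated data. Same-numbered arrays were checked for pairing: deviations from group means correlated between -0.22 and 0.66, so the numbers were not taken to pair the arrays. The 0.66 was between lettered controls with and without 4PBA, and a replicate block left no member called in that comparison. Alternatives covered scaling, background correction, filters, outlier spots, probe choice, test, doubtful labels and leaving out each array. Python 3.11.15, pandas 2.3.3 and matplotlib 3.10.9 were used for promoters and plots.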

Additional observations from a re-analysis of the deposited data

How the results depend on the processing

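The number of the 10 genes called was 0 in all 14 comparisons under all alternatives run, 306 values in all, including each array left out in turn (range 0 to 0), with a smallest adjusted p of 0.0508 by limma. A replicate block by slide and number left it at 0 (smallest adjusted p 0.0959 in Derlin-1 KO without 4PBA) and called 1387 genes there. Over all genes, that comparison called 1155 (593 higher), against 784 (278 higher) with median scaling and 1255 (771 higher) with the percentile over probes above background on all arrays. It called 648 without a filter, 1793 with 1 probe per gene, 2 on the numbered and 150 on the lettered series alone, and 201 with arrays of the line only. Without a single array it called between 273 (lettered KO a) and 1934 (lettered KO b), with 657 and 489 without numbered vehicle control 1 and 2, 488 and 398 without numbered vehicle KO 1 and 2, and 426 without lettered control a. The other 13 comparisons called between 0 and 685 genes over the alternatives, with 685 for Derlin-1 KO under 4PBA when KO 4PBA b of the lettered series was left out. Median scaling shifted all genes by -0.12 for 4PBA in Derlin-2 controls, -0.20 in Derlin-2 KO and -0.19 in the series difference without 4PBA. The dim Gjb6 probe had an adjusted p of 0.123 with median scaling, 0.0678 without a filter, 0.417 and 0.138 on the numbered and lettered series alone and 0.109 with arrays of the line only. Normexp was run on the median signal and chosen after seeing the files, which hold no mean signal, and the slide row as a random block could not be fitted because the group means already hold the row; the mean-signal version was not run.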
